A study of Rattus norvegicus with 13 samples.

Results

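In at least 1 group of microdissected rat glomeruli, probe sets of the same gene lay on opposite sides of their level in sieved glomeruli for the 9 genes described here. The array names 10412 genes by a single symbol, but only the 974 with at least 2 tested probe sets could show this pattern. It is not confined to the 9: 50 of the 974 had opposite calls, defined below, in both microdissected groups. The 9 genes are Canx, Galnt2, Gdi2, Itgb5, Il6st, Csnk1d, Tnks2, Pcbp2 and Kmt2e. They were chosen on measured values of these arrays, in which at least 1 probe set of the gene was higher and another lower in microdissected than in sieved glomeruli, so their changes against sieved glomeruli are given as a description and no p is given for them. Each gene is shown through every probe set that has it as the only symbol, 24 of the 15923 probe sets in all, and all 24 passed the filter on low signal that left 11106 probe sets.

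The arrays were Affymetrix Rat 230A, hybridised with RNA from kidney glomeruli of untreated Lewis-Hsd rats aged 18 weeks. LCM20 (n = 4) and LCM800 (n = 5) held glomeruli cut by laser capture microdissection from 10 micron sections, with total RNA taken through 2 rounds of amplification with the Arcturus HS Riboamp kit. The protocol names about 800 glomerular cross-sections for both groups, and what the number 20 counts is not given. Sieved glomeruli (n = 4) came from the opposite kidney, perfused with iron oxide and purified by magnet and sieve, and their RNA was not amplified. Both kinds of sample were labelled from 6 µg of RNA. Dissection, amplification and perfusion therefore differ together between microdissected and sieved samples, and their parts in a difference cannot be told apart. Embryos are mentioned in a description field, although every sample has kidney as its source. Anti-Thy1.1 rats are also named in the extraction text for sieved samples, which is at odds with untreated rats. Whether any sieved sample came from such a rat is not clear, and a part of this in the differences from sieved was not tested.

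A probe set is a group of short probes read together as 1 signal, and a gene can be covered by several probe sets placed on different stretches of its transcripts. Amplification of RNA primed from the poly(A) tail is known to shorten the product with each round, so that sequence far from the 3′ end is represented less. Genes can also make transcripts with different 3′ ends or exons, and probe sets then read different transcripts of one gene. Probe positions and probe sequences were not used here, and no probe set is placed along its transcript.

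Changes are the difference between group means of log2(signal + 65.3), with the SE of a limma fit to all 13 arrays, with signals in intensity units. A probe set was called higher or lower at a Benjamini-Hochberg adjusted p under 0.05 over the 11106 probe sets tested. For the 9 genes these calls against sieved glomeruli only count probe sets and are no test of the genes, since the genes were chosen on the same values. In LCM20 against sieved glomeruli 9 of the 24 probe sets were called higher and 11 lower, beside 26.2% higher and 19.2% lower of all tested (45.3% in either direction). In LCM800 against sieved the counts were 8 higher and 11 lower, beside 31.8% and 20.1% (51.9% in either direction). All 9 genes had calls in both directions in LCM20 and 7 of 9 in LCM800, beside 9.14% and 9.24% of the 974 genes with at least 2 tested probe sets. Nothing is read from these counts, because they are what chose the genes. Their median change was −0.26 in LCM20 and −0.18 in LCM800, against 0.17 and 0.22 over all tested probe sets. Ranges of the arrays did not overlap for 19 probe sets in LCM20 and 16 in LCM800 against sieved, beside 43.8% and 42.8% of all tested.

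**Figure D1:**
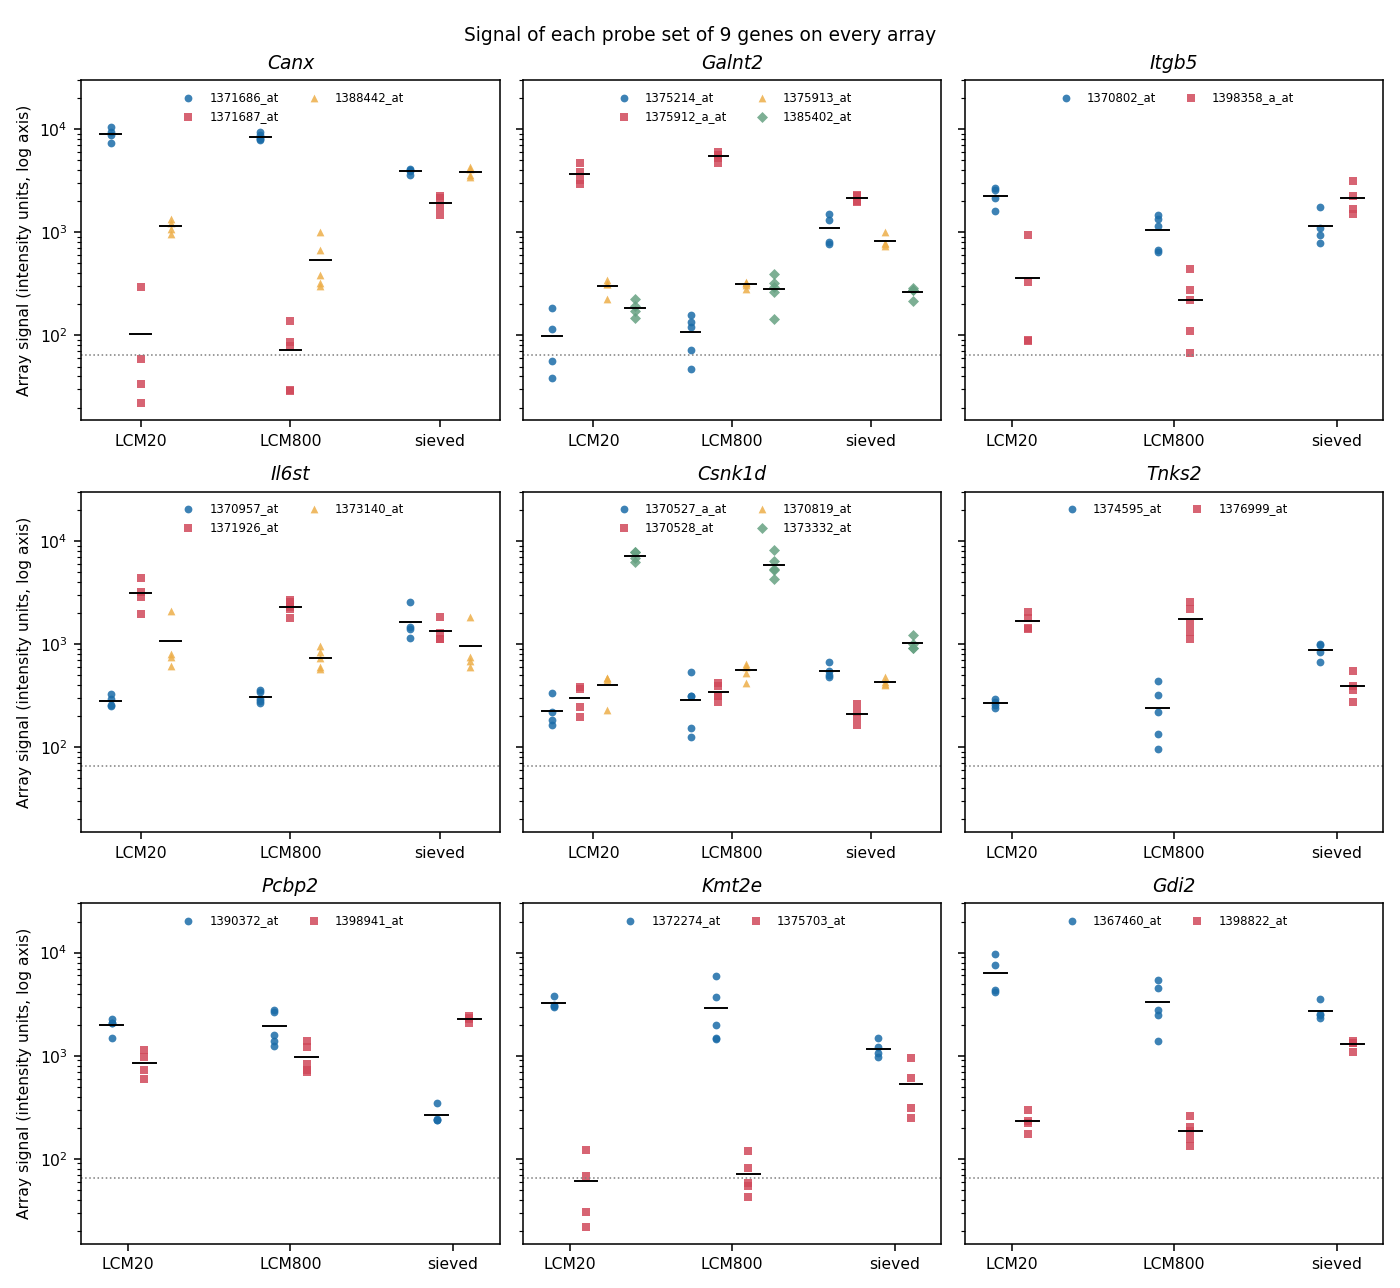
Signal of each probe set (vertical axis, intensity units, log scale) on every array, by group, with 1 panel per gene; points are arrays, bars are group means and the dotted line is the pseudocount of 65.3. In Canx the probe set 1371686_at lies at 7458 or more on all 9 microdissected arrays and 1371687_at at 297 or less, while the sieved arrays hold 1371686_at between 3590.15 and 4152 and 1371687_at between 1485 and 2259.9.

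The first 3 genes act in the secretory pathway. Canx encodes calnexin, a chaperone of the endoplasmic reticulum that helps new glycoproteins fold. Its probe set 1371686_at had signals of 8749, 10652, 9428 and 7458 in LCM20, 8067, 7983, 9469, 8179 and 8879 in LCM800 and 4152, 3947, 4068 and 3590.2 in sieved arrays. Every microdissected array lay above every sieved array. Probe set 1371687_at had 59.1, 33.9, 22.1 and 297 in LCM20, 139, 85.7, 79.8, 29.7 and 29 in LCM800 and 2259.9, 2178, 1764 and 1485 in sieved arrays. Here every microdissected array lay below every sieved array, and 3 of the 4 LCM20 and 2 of the 5 LCM800 signals were under the pseudocount. The third, 1388442_at, had 1077, 1244, 966 and 1338 in LCM20, 322, 305, 385, 1007 and 677 in LCM800 and 4336, 4142, 3436 and 3589.7 in sieved arrays. It too was lower on every microdissected array, and LCM800 replicates 4 and 5 lay above LCM800 replicates 1, 2 and 3.

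The change of Canx 1371686_at was 1.18 ± 0.20 in LCM20 and 1.10 ± 0.19 in LCM800 against sieved, a mean signal 2.3 and 2.16 times as high. For 1371687_at it was −3.80 ± 0.38 and −3.89 ± 0.36, or 18.7 and 26.5 times lower by mean signal, and for 1388442_at −1.69 ± 0.30 and −2.83 ± 0.28. The changes of 1371686_at and 1371687_at thus differed by 4.98 in LCM20 and 4.99 in LCM800, rank 1 of 974 genes in both comparisons. All 3 Canx probe sets are listed under the same sequence record in the platform annotation. Whether their probes were designed from that record alone was not examined, here or for the other genes. The size for 1371687_at rests on signals near the pseudocount, and it was −4.98 and −4.97 with no pseudocount.

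Galnt2 encodes an enzyme that adds the first sugar of mucin-type O-glycans to proteins in the Golgi. Probe set 1375912_a_at, whose suffix marks probes shared by transcript variants of a gene, had 3888, 3211, 4767 and 2973 in LCM20, 5621, 5697, 5302, 4705 and 6095 in LCM800 and 2035, 2261, 1985 and 2289 in sieved arrays. All microdissected arrays were above all sieved arrays. Probe set 1375214_at had 115, 38.4, 56.7 and 183 in LCM20, 134, 121, 159.8, 47.4 and 71.9 in LCM800 and 801, 777, 1319.96 and 1526 in sieved arrays. All microdissected arrays were below all sieved arrays, with LCM20 replicate 2 and LCM800 replicate 4 lowest in their groups. Probe set 1375913_at, listed under the same record as 1375912_a_at, had 345, 228, 318 and 317 in LCM20, 282, 309, 331, 326 and 323 in LCM800 and 773, 797, 736 and 1017 in sieved arrays. It was lower on every microdissected array as well, so 2 probe sets on 1 record stood on opposite sides of sieved.

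On the log2 scale Galnt2 1375912_a_at changed by 0.75 ± 0.21 in LCM20 and 1.33 ± 0.20 in LCM800. The values were −2.87 ± 0.31 and −2.75 ± 0.30 for 1375214_at, and −1.29 ± 0.18 and −1.23 ± 0.17 for 1375913_at. With 4 times the pseudocount the LCM20 value of 1375214_at was −1.90. The fourth probe set, 1385402_at, ranged from 148 to 225 in LCM20, 145 to 392 in LCM800 and 214 to 286 in sieved arrays. Its groups overlapped, and its changes were −0.40 ± 0.23 and 0.04 ± 0.22.

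Gdi2 encodes a GDP dissociation inhibitor, which takes Rab GTPases off membranes so that they can be reused in vesicle transport. Probe set 1367460_at had 4386, 9614, 4124 and 7501 in LCM20, 1380.1, 2505, 2802, 5442 and 4523 in LCM800 and 2515, 2327, 3566 and 2506 in sieved arrays. LCM20 lay above sieved without overlap. LCM800 arrays lay on both sides of sieved, replicates 4 and 5 above every sieved array and replicate 1 below every one. Probe set 1398822_at, listed under the same record, had 234, 175, 298 and 223 in LCM20, 154, 203, 133, 257 and 188 in LCM800 and 1327, 1318, 1397 and 1093 in sieved arrays. It was lower on all 9 microdissected arrays.

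In LCM20 the change of Gdi2 1367460_at was 1.14 ± 0.38, and in LCM800 it was 0.15 ± 0.36. For 1398822_at it was −2.19 ± 0.20 and −2.43 ± 0.19. The LCM800 value of 1367460_at was 0.87 without LCM800 replicates 1, 2 and 3 and −0.32 without replicates 4 and 5. The arrays in which LCM800 divided for this probe set are the same ones that divided for Canx 1388442_at.

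Itgb5 and Il6st encode cell surface receptor subunits. Itgb5 encodes integrin β5, which pairs with integrin αv and binds vitronectin. Its probe set 1370802_at had 2157, 2558, 1626 and 2718 in LCM20, 649.9, 678, 1163, 1485 and 1338 in LCM800 and 1117, 951, 1750.1 and 789 in sieved arrays. LCM20 overlapped sieved only through sieved replicate 3, LCM800 overlapped sieved widely, and LCM20 lay wholly above LCM800. The other probe set, 1398358_a_at, had 89.5, 327, 88.3 and 935 in LCM20, 110.4, 277, 438, 223 and 67.7 in LCM800 and 2237, 1697, 3139 and 1511 in sieved arrays. Every microdissected array was lower than every sieved array, with LCM20 replicate 4 closest to sieved.

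The change of Itgb5 1370802_at was 0.97 ± 0.30 in LCM20 and −0.12 ± 0.29 in LCM800, and that of 1398358_a_at was −2.78 ± 0.52 and −3.04 ± 0.49. Itgb5 was thus the only one of the 9 genes whose probe sets did not differ in sign in LCM800. Without LCM800 replicates 1, 2 and 3 the LCM800 value of 1370802_at was 0.34.

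Il6st encodes gp130, the signalling subunit shared by the receptors of interleukin 6, leukemia inhibitory factor and related cytokines. Probe set 1371926_at had 3236, 4356, 1969 and 2847 in LCM20, 2189, 1792, 2273, 2687 and 2588 in LCM800 and 1120.3, 1121, 1824 and 1279.8 in sieved arrays. LCM20 lay above sieved, and in LCM800 replicate 2 was below sieved replicate 3. Probe set 1370957_at had 296, 251, 329 and 257 in LCM20, 345, 270.4, 278, 292 and 360.5 in LCM800 and 1415, 1466, 2569.8 and 1142 in sieved arrays. All microdissected arrays were low and close together, and sieved replicate 3 was the highest. The third probe set, 1373140_at, ranged from 611 to 2079 in LCM20, 570 to 964 in LCM800 and 602 to 1811 in sieved arrays. Its groups overlapped.

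For Il6st the changes in LCM20 and LCM800 were 1.15 ± 0.26 and 0.77 ± 0.24 at 1371926_at, −2.24 ± 0.23 and −2.14 ± 0.21 at 1370957_at, and 0.12 ± 0.36 and −0.23 ± 0.34 at 1373140_at.

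Csnk1d and Tnks2 encode signalling enzymes. Csnk1d encodes casein kinase 1 delta, which phosphorylates the period proteins of the circadian clock. Its probe set 1373332_at had 7748, 7820.3, 6916 and 6261 in LCM20, 5241, 6368, 8228, 5345 and 4290.3 in LCM800 and 916, 906, 1228 and 1005 in sieved arrays. The microdissected arrays all lay far above the sieved arrays. Probe set 1370527_a_at had 333, 183, 219 and 165 in LCM20, 315, 536, 313, 152 and 126 in LCM800 and 506, 668, 548 and 478 in sieved arrays. LCM20 was below sieved, and LCM800 overlapped sieved through replicate 2. Probe set 1370528_at, listed under the same record as 1370527_a_at, had 379, 197, 369.7 and 242 in LCM20, 389.8, 423, 309.8, 314 and 271 in LCM800 and 217, 259, 163 and 194 in sieved arrays. LCM20 overlapped sieved, whereas all LCM800 arrays were above it. Probe set 1370819_at ranged from 228 to 473 in LCM20, 418 to 637 in LCM800 and 399.98 to 475 in sieved arrays, and all groups overlapped sieved.

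Csnk1d 1373332_at changed by 2.75 ± 0.23 in LCM20 and 2.44 ± 0.22 in LCM800, mean signals 7.09 and 5.81 times those of sieved arrays. The values were −1.11 ± 0.31 and −0.91 ± 0.29 for 1370527_a_at, and 0.38 ± 0.22 and 0.57 ± 0.21 for 1370528_at. At 1370819_at they were −0.12 ± 0.22 and 0.33 ± 0.21. The LCM800 value of 1370527_a_at was −1.58 without LCM800 replicates 1, 2 and 3 and −0.47 without replicates 4 and 5.

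Tnks2 encodes tankyrase 2, which attaches ADP-ribose chains to target proteins such as axin. Probe set 1376999_at had 1441, 2059, 1776 and 1401 in LCM20, 1109.7, 1299, 1583, 2171 and 2539 in LCM800 and 275, 358, 552 and 391 in sieved arrays. Probe set 1374595_at had 257, 238, 275 and 296 in LCM20, 322, 133, 95.2, 434 and 221 in LCM800 and 670.2, 994, 978 and 847 in sieved arrays. The first was higher and the second lower on every microdissected array, with no overlap in either case. The changes were 1.93 ± 0.27 in LCM20 and 1.94 ± 0.26 in LCM800 for 1376999_at, and −1.49 ± 0.29 and −1.72 ± 0.28 for 1374595_at.

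Pcbp2 and Kmt2e encode regulators of RNA and chromatin. Pcbp2 encodes a poly(C)-binding protein that acts on messenger RNA stability and translation. Probe set 1390372_at had 1469, 2098, 2066 and 2282 in LCM20, 1234, 1391, 1579, 2805 and 2678 in LCM800 and 237, 243, 347 and 236 in sieved arrays. All microdissected arrays were above all sieved arrays, and LCM800 replicates 4 and 5 were the highest. Probe set 1398941_at had 592, 733, 979.6 and 1129 in LCM20, 693, 731, 835, 1203 and 1397 in LCM800 and 2268, 2306, 2088 and 2410.1 in sieved arrays. All microdissected arrays were below all sieved arrays, and LCM800 replicates 4 and 5 were again the highest of their group. The changes in LCM20 and LCM800 were 2.62 ± 0.27 and 2.53 ± 0.26 for 1390372_at, and −1.37 ± 0.25 and −1.22 ± 0.24 for 1398941_at. The LCM800 value of 1398941_at was −0.77 without LCM800 replicates 1, 2 and 3.

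Kmt2e encodes a chromatin protein of the SET domain family. Probe set 1372274_at had 3089.5, 3018, 3809.8 and 2965 in LCM20, 1478, 1465, 1962, 5946 and 3705 in LCM800 and 1051, 969, 1468 and 1204 in sieved arrays. LCM20 was above sieved. In LCM800 replicates 4 and 5 were far above sieved, and replicate 2 lay just under sieved replicate 3. Probe set 1375703_at had 30.6, 123, 21.7 and 67.9 in LCM20, 42.9, 119, 80.4, 57.8 and 54.5 in LCM800 and 309, 248, 939 and 612 in sieved arrays. Every microdissected array was below every sieved array, with 2 LCM20 and 3 LCM800 signals under the pseudocount, and this probe set passed the filter narrowly, at percentile 30.2 of the mean log2 of all probe sets.

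Kmt2e 1372274_at changed by 1.42 ± 0.36 in LCM20 and 1.06 ± 0.35 in LCM800, and 1375703_at by −2.14 ± 0.35 and −1.99 ± 0.33. With 4 times the pseudocount the values of 1375703_at were −1.22 and −1.17, and with no pseudocount they were −3.24 and −2.79. The LCM800 value of 1372274_at was 1.96 without LCM800 replicates 1, 2 and 3 and 0.46 without replicates 4 and 5.

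**Figure D2:**
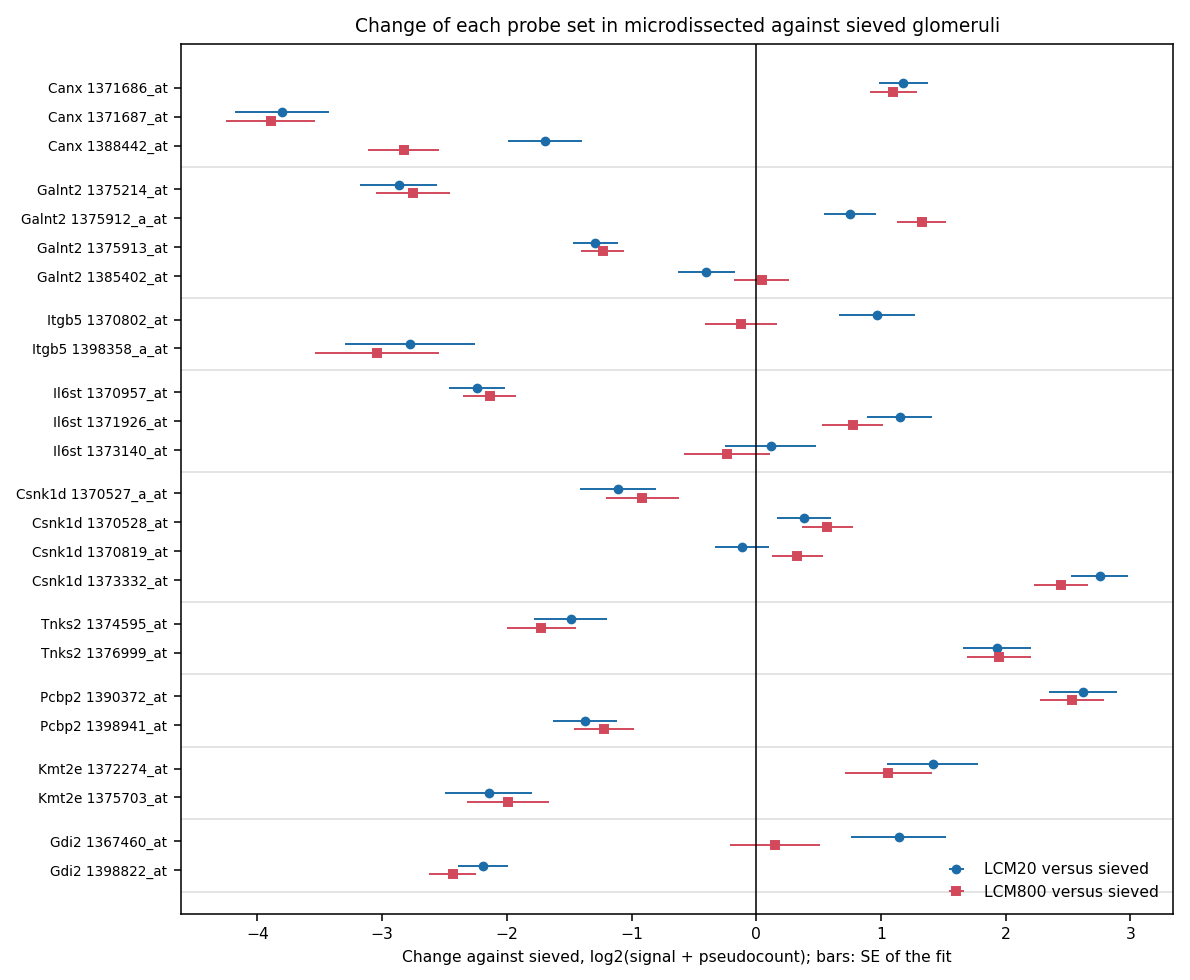
Change of each of the 24 probe sets against sieved glomeruli (horizontal axis, difference of mean log2(signal + 65.3)), with LCM20 as circles and LCM800 as squares and bars of 1 SE of the fit. Probe sets of a gene lie on both sides of 0, except for Itgb5 in LCM800 where both lie below it, and run from −3.80 and −3.89 at Canx 1371687_at to 2.75 and 2.44 at Csnk1d 1373332_at, and LCM20 and LCM800 lie farthest apart at Canx 1388442_at, Itgb5 1370802_at and Gdi2 1367460_at.

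Of the 24 probe sets, 7 were called higher in both microdissected groups and 11 lower in both, beside 22.1% and 15.5% of all tested. A further 3 were called in 1 comparison and 3 in neither. The comparisons share the sieved arrays, and nothing is read from these counts. The a_at suffix stands on 3 of the 24, of which 1 was higher and 2 lower in both comparisons. None has a suffix that marks probes shared with other genes.

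Of the 24 probe sets, 9 are listed under 4 sequence records that they share, in Canx, Galnt2, Gdi2 and Csnk1d. These records give 6 within-gene pairs, of which 4 had opposite calls in LCM20 and 4 in LCM800. In 3 pairs, of Canx and Galnt2, this held in both comparisons, while the Gdi2 pair was opposite in LCM20 alone and the Csnk1d pair in LCM800 alone. Over all genes, calls were opposite in 5.91% (LCM20) and 7.88% (LCM800) of 203 pairs of probe sets listed under the same record, and in 3.45% in both. For 1031 pairs listed under different records the shares were 8.34% and 8.73%, and 4.75% in both. Opposite calls thus occurred between probe sets of 1 record as well as of different records.

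The difference between the most positive and the most negative change of a gene was 3.33 (Gdi2) to 4.98 (Canx) in LCM20 and 2.59 (Gdi2) to 4.99 (Canx) in LCM800. Over the 974 genes with at least 2 tested probe sets the median was 0.87 in LCM20 and 0.88 in LCM800, and the 95th percentile 2.67 and 2.58. The 9 genes ranked 1 to 15 among the 974 in LCM20 and 1 to 49 in LCM800, as follows from how they were chosen.

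**Figure D3:**
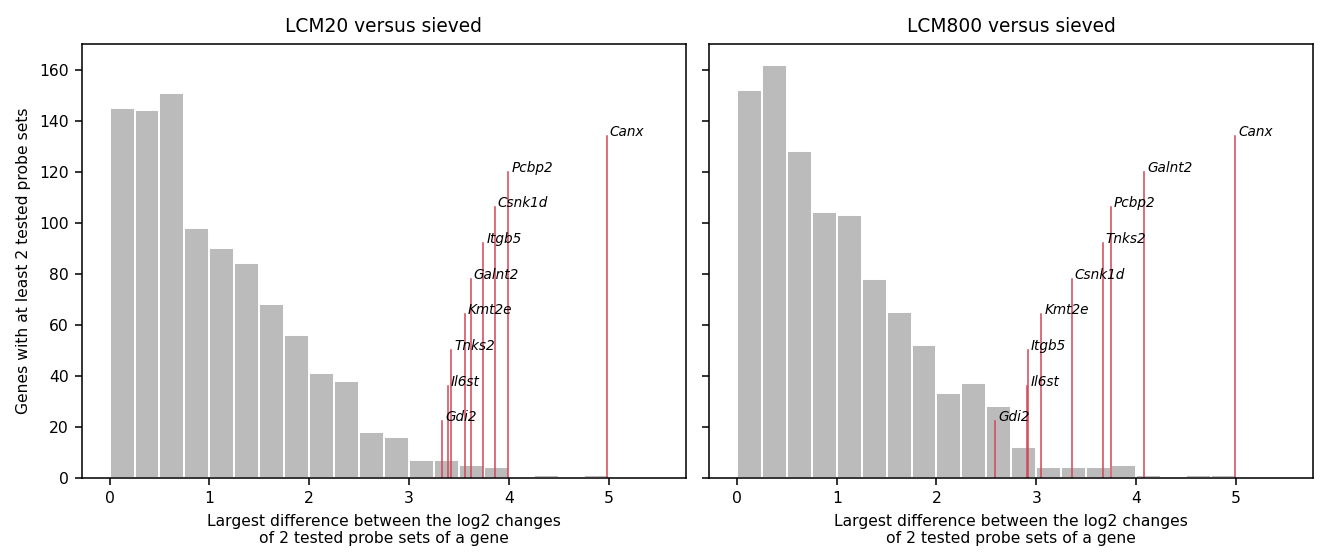
Number of genes (vertical axis) by the largest difference between the log2 changes of 2 tested probe sets of a gene (horizontal axis), for 974 genes, in LCM20 and LCM800 against sieved; red lines mark the 9 genes and their heights only separate the names. The median gene stands at 0.87 and 0.88, and Canx at 4.98 and 4.99.

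Opposite calls in both comparisons, with each probe set in the same direction in both, were found in 50 of the 974 genes (5.13%), 7 of them among the 9 described here. The genes with the pattern most like theirs over the 13 arrays were RT1-Bb, Jun, Ccnd1, Exoc3 and Tomm20. Likeness was measured as the smaller of the 2 comparisons' differences between such probe sets. It was 3.92 in RT1-Bb, which encodes a class II histocompatibility chain, where 1371065_at changed by 1.27 in LCM20 and 1.30 in LCM800 and 1371033_at by −2.69 and −2.62. In Jun, an immediate early transcription factor gene, it was 3.47, with 2.10 and 1.77 at 1369788_s_at and −1.50 and −1.71 at 1389528_s_at. It was 3.39 in Ccnd1, the cyclin D1 gene, 3.27 in Exoc3, which encodes an exocyst subunit, and 3.18 in Tomm20, which encodes a receptor for mitochondrial protein import. Both Jun probe sets and the lower one of Tomm20, 1370785_s_at, have the s_at suffix, which marks probes shared with other genes.

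Because probe sets of these genes oppose each other, the direction given to the gene depends on which one stands for it. Taking the mean of all probe sets in place of the one with the highest mean log2 turned the direction in 7 of 9 genes in LCM20 and 5 of 9 in LCM800, and taking the median turned it in 8 and 6, counting genes whose brightest probe set was called. Genes chosen for opposed probe sets favour such turns, and the share over all genes was not counted, so nothing is read from these counts. Gdi2, at 0.15 in LCM800 on its brightest probe set and not counted there, stood at −1.14 on the mean. Canx, for example, changed by 1.18 in LCM20 and 1.10 in LCM800 on its brightest probe set and by −1.44 and −1.87 on the mean. Pcbp2 turned the other way, with −1.37 and −1.22 on its brightest probe set and 0.62 and 0.66 on the mean. Tnks2 kept its direction in both comparisons under the mean and the median, with means at 0.22 and 0.11 against 1.93 and 1.94.

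The comparison of LCM20 with LCM800 asks whether the probe sets of a gene also part between the 2 microdissected groups. This contrast was not the one that chose the genes, but it uses the same microdissected arrays. Itgb5 and Gdi2 had opposite calls in LCM20 and not in LCM800, so their differences between these groups are not independent of the choice and are given with no p. None of the 24 probe sets passed limma's test (adjusted p of at least 0.0887), beside 17 of the 11106 tested (0.153%). At an unadjusted p under 0.05 there were 5 of 24 (20.8%) and 1952 of all tested (17.6%). The largest changes were those of Canx 1388442_at, 1.13 ± 0.28 (adjusted p = 0.0887), Itgb5 1370802_at, 1.09 ± 0.29, and Gdi2 1367460_at, 0.99 ± 0.36. Itgb5 1370802_at was the only one of the 24 whose groups did not overlap, beside 3.84% of all tested, and this separation is not independent of the choice. The median change of the 24 was 0.09, against −0.06 over all tested probe sets.

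No gene had opposite calls between LCM20 and LCM800 (0 of 974, or 0%, by limma; 11 genes at an unadjusted p under 0.05, none of the 9). The difference between probe sets of a gene was also tested directly, pair by pair. None of 23 pairs within the 9 genes passed, beside 0 of 1234 pairs over all genes (0%), and 3 of 23 and 251 of 1234 had an unadjusted p under 0.05. The difference for Canx 1371686_at minus 1388442_at was −1.05 ± 0.32 (adjusted p = 0.148). For the pair 1371686_at minus 1371687_at it was −0.01 ± 0.44 (adjusted p = 0.995). A p that misses the threshold does not show that the groups are alike.

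LCM800 did not hold together as a group. Over all tested probe sets its replicates 1, 2 and 3 correlated with each other at 0.893 or more and replicates 4 and 5 at 0.937, while no correlation between these sets exceeded 0.812. This split was found in these same arrays, so p values from either part follow a choice made on the data and are no independent test. Without replicates 4 and 5, 2581 probe sets passed between LCM20 and LCM800 (23.2%) and so did 5 of the 24. These were Canx 1388442_at (1.60, adjusted p = 0.000234), Itgb5 1370802_at (1.40), Gdi2 1367460_at (1.47), Kmt2e 1372274_at (0.96, adjusted p = 0.00503) and Galnt2 1385402_at (−0.64, adjusted p = 0.0363). Of the 23 pairs 4 passed, beside 300 of 1234 (24.3%), namely 2 of Canx and those of Itgb5 and Kmt2e. These counts stand near the shares over all genes, so they say nothing particular to the 9 genes. The Itgb5 and Gdi2 probe sets and the Itgb5 pair among them are not independent of the choice of genes and count as no test. Without replicates 1, 2 and 3 instead, 23 probe sets passed and none of the 23 pairs did.

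**Figure D4:**
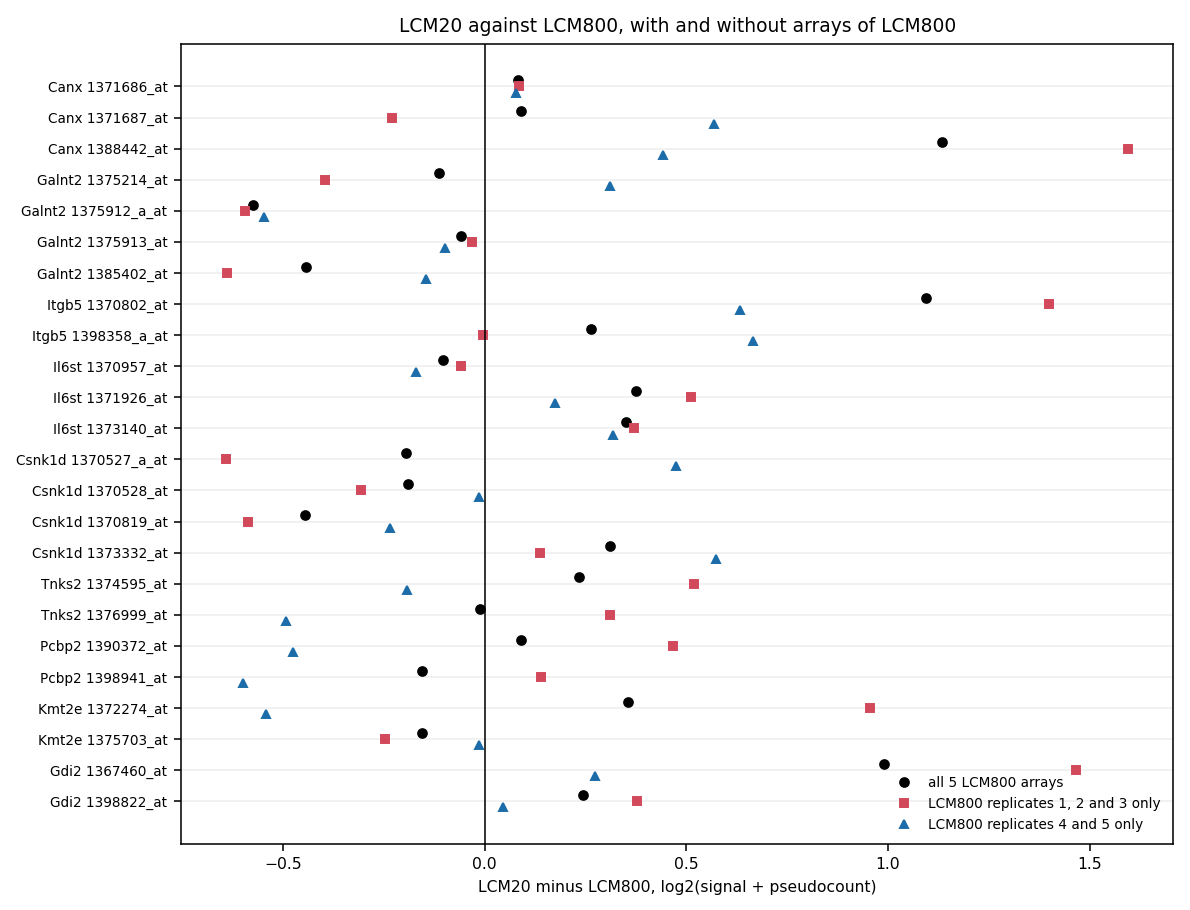
Change of each of the 24 probe sets in LCM20 against LCM800 (horizontal axis, difference of mean log2(signal + 65.3)) with all 5 LCM800 arrays (circles), with LCM800 replicates 1, 2 and 3 alone (squares) and with replicates 4 and 5 alone (triangles). Canx 1388442_at stands at 1.13, 1.60 and 0.44, and Kmt2e 1372274_at moves across 0, at 0.36, 0.96 and −0.54.

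The gap between the higher and the lower probe set of each gene, set to a sieved mean of 0, showed how each array stood. For Canx it averaged 4.98 ± 1.13 in LCM20 (SD, n = 4), 4.99 ± 0.51 in LCM800 (n = 5) and 0 ± 0.21 in sieved arrays (n = 4). For Pcbp2 it averaged 3.99 ± 0.21 in LCM20, 3.75 ± 0.15 in LCM800 and 0 ± 0.30 in sieved arrays. Of the 9 genes the smallest gap on any microdissected array was 1.68, in Gdi2, and the largest on any sieved array 0.52, in Kmt2e. LCM20 replicate 4 had the smallest gap of its group in Canx (3.35), Galnt2 (2.64), Itgb5 (2.34), Tnks2 (3.07) and Pcbp2 (3.80). The gap thus had the same sign on every microdissected array, LCM800 replicates 4 and 5 included, for every gene; this sign follows from the choice of genes.

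Array controls that read both ends of a transcript differed in LCM800 against sieved arrays, and in LCM20 none of the 3 passed after adjustment. LCM20 has fewer arrays, so the smallest p that the permutation test allows is higher there. This contrast in outcome is therefore not read as a difference between LCM20 and LCM800. The 3′ minus 5′ log2 signal of β-actin was 1.33, 1.52, 2.06 and 2.29 in LCM20, 2.80, 3.54, 4.01, 1.78 and 1.71 in LCM800 and 0.54, 0.55, 0.53 and 0.57 in sieved arrays. All microdissected arrays were above all sieved arrays, and LCM800 replicates 1, 2 and 3 were the highest. The mean difference was 1.25 in LCM20 against sieved (exact two-sided permutation test, p = 0.0286, the smallest it allows; adjusted over 9 tests, p = 0.0643) and 2.22 in LCM800 against sieved (p = 0.0159, the smallest it allows; adjusted p = 0.0476). Between LCM20 and LCM800 it was −0.97 (exact p = 0.143; adjusted p = 0.257). GAPDH differed by 0.70 and hexokinase by −0.50 in LCM800 against sieved (exact permutation, adjusted p = 0.0476 each), so hexokinase went the other way. In LCM20 against sieved GAPDH differed by 0.61 (exact permutation, adjusted p = 0.611) and hexokinase by −0.29 (exact permutation, adjusted p = 0.343). With no pseudocount none of the 3 passed in LCM800 (exact permutation, adjusted p = 0.0714, 0.0714 and 0.796). Leaving out any 1 LCM800 or sieved array also ended these calls, with fewer splits of the arrays to permute. The part of 3′ bias in the opposed changes was not tested.

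**Figure D5:**
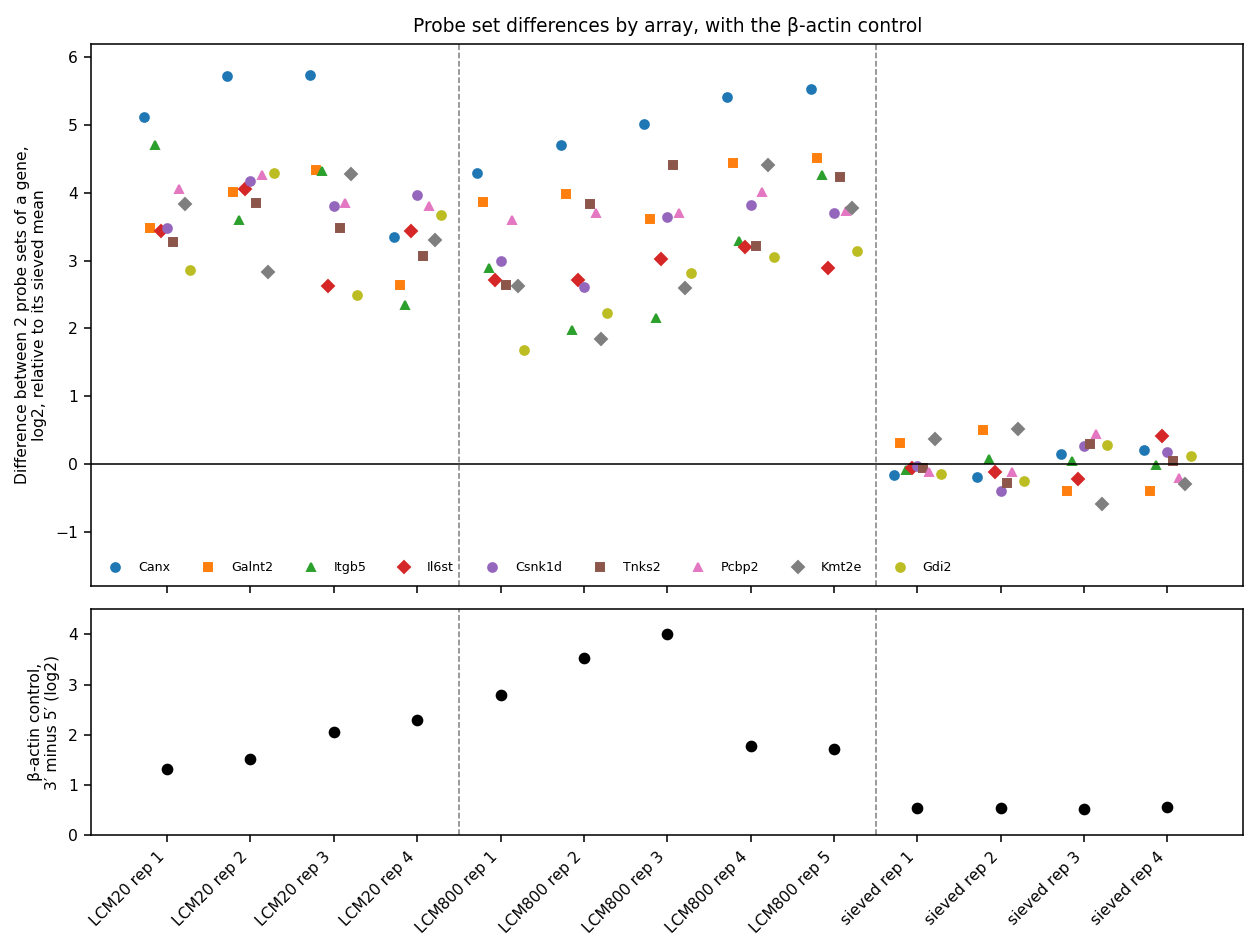
Upper panel, log2 difference between the higher and the lower probe set of each gene on each of the 13 arrays, relative to its sieved mean; lower panel, 3′ minus 5′ log2 signal of the β-actin control on the same arrays. Microdissected gaps run from 1.68 to 5.74 and sieved gaps from −0.59 to 0.52, and the control runs from 1.33 to 4.01 against 0.53 to 0.57.

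Summed signals of cell type markers were also compared between the groups. Both microdissected groups lay below sieved without overlap for proximal tubule and leukocyte markers. For loop, distal tubule and collecting duct markers only LCM20 did so, and podocyte sums overlapped. The 5 podocyte markers measured of 6 summed to 25018 to 39888 in LCM20, 28210 to 39378 in LCM800 and 15198 to 36231 in sieved arrays, so podocyte transcripts were present in each group, as the glomerular label says. The 6 proximal tubule markers summed to 6319 to 11737 in LCM20, 7796 to 15083 in LCM800 and 36212 to 70239.5 in sieved arrays. Markers of the loop, distal tubule and collecting duct (5 of 5) summed to 2840.27 to 10286 in LCM20, 10918 to 18951 in LCM800 and 15969.6 to 34799.9 in sieved arrays, and leukocyte markers (4 of 4) to 1542 to 4511, 1945 to 4532 and 5015 to 9247. No marker lay under the pseudocount on every array of a group. Whether tubule RNA in the sieved samples had a part in the lower probe sets was not tested, and in bulk RNA fewer cells of a type and less RNA per cell cannot be told apart.

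Relatives of the 9 genes, taken by family and pathway and each read on its brightest tested probe set, were tested against sieved in the same fit. Of 63 listed, 36 had a probe set that passed the filter on low signal. The others had no probe set naming them alone, or only probe sets that the filter left out. In LCM20 7 rose, 9 fell and 20 did not pass, with a median of −0.14, and in LCM800 5 rose, 11 fell and 20 did not pass, with a median of 0.06. The counts against sieved stand beside 26.2% higher and 19.2% lower in LCM20 and 31.8% and 20.1% in LCM800 over all tested probe sets. Between LCM20 and LCM800 none of the 36 passed by limma, beside 0.153% of all tested. At an unadjusted p under 0.05 there were 9 of 36, beside 17.6% of all tested.

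Among the partners of calnexin, the disulfide isomerase gene Pdia3 fell by 2.43 ± 0.25 in LCM20 (adjusted p = 3.96e-06) and by 1.72 ± 0.24 in LCM800 (adjusted p = 3.59e-05). Its mean signal was 730.1 in LCM20 and 1292 in LCM800, against 4202 in sieved arrays. Its other probe set, 1392920_at, rose by 0.64 (adjusted p = 0.0486) and 0.96 (adjusted p = 0.00381), so Pdia3 had opposite calls in both comparisons. Among the O-glycosylation enzymes Galnt11 changed by −1.78 ± 0.35 in LCM20 and −2.66 ± 0.33 in LCM800. C1galt1, which extends the first sugar, fell by 1.57 ± 0.46 and 1.89 ± 0.43 at the brighter of its 2 tested probe sets. The changes of those 2 probe sets differed by 1.24 in LCM20 and 1.62 in LCM800, without opposite calls. Without LCM800 replicates 1, 2 and 3 the C1galt1 value in LCM800 was −1.07 and missed the threshold. Rab11a, a GTPase of recycling endosomes, rose by 0.67 ± 0.22 in LCM20 (adjusted p = 0.0233), a call that ended without LCM20 replicate 3 or 4 or sieved replicate 1 or 4. That was its brighter probe set, and its 2 tested probe sets differed in change by 0.695 in LCM20.

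Of the integrin β genes, Itgb7 rose by 1.39 ± 0.20 in LCM20 and 1.38 ± 0.19 in LCM800, and Itgb4, which encodes the β chain of the laminin receptor of hemidesmosomes, fell by 0.96 ± 0.25 in LCM20. With 4 times the pseudocount Itgb7 stood at 0.84 and 0.83 and Itgb4 at −0.58. In the gp130 pathway Stat3, the transcription factor activated by that receptor, fell by 1.28 ± 0.29 in LCM20 (adjusted p = 0.0023) and 0.83 ± 0.28 in LCM800 (adjusted p = 0.0188). The LCM800 call of Stat3 ended without LCM800 replicates 4 and 5 (−0.40) and without sieved replicate 1, and the value was −1.49 without LCM800 replicates 1, 2 and 3. The ligand gene Lif rose by 0.65 ± 0.22 in LCM20 (adjusted p = 0.0268), a call that ended without LCM20 replicate 1 or 3 or sieved replicate 1 or 3.

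The period gene Per1 fell by 1.59 ± 0.30 in LCM20 and 1.61 ± 0.29 in LCM800, or −0.94 and −0.96 with 4 times the pseudocount. Per2 fell by 0.71 ± 0.25 in LCM20 (adjusted p = 0.0292), and the call ended without LCM20 replicate 4 or sieved replicate 3 or 4 and with array weights. Csnk1g3, a kinase of the same family as Csnk1d, rose by 1.34 ± 0.43 in LCM20 (adjusted p = 0.0181; 0.0661 without LCM20 replicate 2). A further family member, Csnk1a1, had 3 tested probe sets, with opposite calls in LCM20, −1.23 at 1369312_a_at and 0.70 at 1389859_at. It had no opposite calls in LCM800. Its brightest probe set, 1374646_at, changed by 0.23 in LCM20 and 0.25 in LCM800 and passed in neither. Parp1, the founding ADP-ribose polymerase, rose by 0.77 ± 0.25 in LCM20, a call that ended without LCM20 replicate 3 or sieved replicate 1 or 2.

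Pcbp1, the closest relative of Pcbp2, fell by 1.64 ± 0.39 in LCM800 (adjusted p = 0.00279), and without LCM800 replicates 1, 2 and 3 the value was −0.60 and missed the threshold. Of the histone methyltransferase genes related to Kmt2e, Kmt2b fell by 0.94 ± 0.21 in LCM20 and 0.71 ± 0.20 in LCM800, while Kmt2d rose by 1.40 ± 0.27 in LCM800. Their complex partners Ash2l and Wdr5 rose, by 1.02 ± 0.22 and 0.72 ± 0.20 in LCM20 and by 1.08 ± 0.21 and 0.60 ± 0.19 in LCM800. Of the 36 relatives, 9 had at least 2 tested probe sets, and 2 of these had opposite calls in LCM20 and 1 in LCM800, beside 9.14% and 9.24% of the 974 genes.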

How the data were processed

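The authors deposited 1 linear signal, in intensity units, for each of 15923 probe sets on 13 arrays. The submitters' processing notes name MAS5. The mean of each array with 2% of values left out at each end was 500.07 to 500.111, so arrays had been scaled, and no further normalization was applied. The median signal per array was 236 to 321, and precision is limited by how few arrays a group holds. Signals were taken as log2(signal + 65.3), the pseudocount being the 20th percentile of all signals, which makes changes of dim probe sets smaller than their signal ratios. The 57 control probe sets and the lowest 30% by mean log2 were left out, leaving 11106.

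Symbols came from the platform annotation, updated by gene ID through RefSeq: 12789 probe sets had 1 symbol and 312 several, and those with several name no gene here. Platform annotation can be old. All 3 groups entered 1 linear fit (limma 3.58.1, R 4.3.3, moderated with a trend), with two-sided tests, Benjamini-Hochberg adjusted over all probe sets at 0.05. Within-gene pairs were tested as differences of log2 values over 1234 pairs. The script was tested on simulated data. Controls were compared by exact permutation. The titles call the arrays biological replicates, and nothing says which rat each came from, so p values measure the spread between these samples.

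The 9 genes, the 63 relatives and the markers were chosen with earlier results of these data known. Named were all probe sets of the 9 genes, the 5 genes most like them (symbols starting LOC or RGD left out), and, per comparison, relatives past the test with ranges that do not overlap, at most 3 per gene by size. Csnk1a1 was named after its values were seen. Alternatives changed the pseudocount (none, or 4 times as large), the filter (none, or the lowest 60%), the scaling (quantiles, or equal medians) and the fit (a block for the replicate number, without the remaining group, no trend, array weights), and left out each array, or LCM800 replicates 1, 2 and 3 or 4 and 5 together. Repeating the relatives under these was added after seeing the data. No genome build is given in the sources used here, and no coordinates are reported.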

Additional observations from a re-analysis of the deposited data

Results flagged for a closer look

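In 4 of 81 sets of replicates 1 array stood apart from the others of its group by Dixon's criterion, where chance flags about 1 in 20. Values here are log2(signal + 65.3). At Kmt2e 1372274_at LCM20 replicate 3 was at 11.92, against 11.57 to 11.62 on the other LCM20 arrays. At Csnk1d 1370819_at LCM20 replicate 2 was at 8.20, against 8.99 to 9.07. At Galnt2 1385402_at sieved replicate 3 was at 8.13, against 8.42 to 8.46 on the other sieved arrays. At Pcbp2 1390372_at sieved replicate 3 was at 8.69, against 8.23 to 8.27.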

How the results depend on the processing

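No called change of the 24 probe sets against sieved turned its direction under any alternative; of 1184 recomputed changes against sieved, 44 moved by more than the spread between replicates. Over them 1 call was gained (Galnt2 1385402_at in LCM20, with array weights) and 20 were lost. Those lost were 6 in LCM20, at Gdi2 1367460_at (5) and Itgb5 1370802_at (1), and 14 in LCM800, at Il6st 1371926_at (4), Kmt2e 1372274_at (2) and Csnk1d 1370527_a_at and 1370528_at (8 together). Between LCM20 and LCM800, 11 calls were gained over 592 recomputed changes. Pseudocount, filter and arrays shaped the counts instead, and where no value shows a cause, the cause was not tested. With the lowest 60% left out, 3260 and 3503 probe sets passed in LCM20 and LCM800 against sieved (fewer were tested). Genes with opposite calls numbered 40 and 38 there, 152 and 159 with no filter and 134 and 151 with array weights. Leaving out 1 array gave 52 (without sieved replicate 1; 53 without sieved replicate 2) to 93 such genes in LCM20 and 65 to 93 in LCM800.

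Between LCM20 and LCM800, 10 probe sets passed with no pseudocount and 10 with no filter, 0 with only the 2 groups compared, 859 with array weights, 0 to 502 with 1 array left out (502 without LCM800 replicate 4), and 2581 without LCM800 replicates 4 and 5. Opposite genes were 2 with array weights and 7 without those replicates. Of the 24 probe sets 3 passed with array weights, 5 without LCM800 replicates 4 and 5, and 0 to 2 with 1 array left out. Probe sets of Itgb5 and Gdi2, which are not independent of the choice of genes, are among the first 2 of these counts. Pairs that passed numbered 7 with the lowest 60% left out, 26 with array weights, 300 without LCM800 replicates 4 and 5, and 0 to 86 with 1 array left out (86 without LCM800 replicate 4). With the replicate number as a block 0 probe sets and 18 pairs passed, none of the pairs from the 9 genes, and the calls in LCM800 against sieved of Il6st 1371926_at, Stat3 and Wdr5 and those in LCM20 of Per2 and Lif did not pass. Same-numbered arrays correlated at −0.24 to 0.23 in their deviations from the group means. With so few arrays in a group this cannot decide whether the numbers pair samples, and pairing by rat remains unknown.

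In the order LCM20, LCM800, the direction of a gene turned from that of its brightest probe set with the mean of its probe sets in Canx (−1.44, −1.87), Galnt2 (−0.95, −0.65), Il6st (−0.33, −0.53), Pcbp2 (0.62, 0.66) and Kmt2e (−0.36, −0.47), and in LCM20 only in Itgb5 (−0.90) and Gdi2 (−0.52). With the median it was −1.66 and −2.80 in Canx, −1.73 and −1.48 in Galnt2, −0.41 and −0.76 in Il6st, −0.45 and −0.10 in Csnk1d, and as the mean in the genes with 2 probe sets.

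For the 3′ minus 5′ controls in LCM800 against sieved, no pseudocount gave 2.72 (β-actin), 0.85 (GAPDH) and −0.55 (hexokinase), none passing after adjustment. With 1 array left out they ran from 1.91 to 2.49, 0.50 to 0.84 and −0.59 to −0.38. With 4 LCM800 against 4 sieved arrays, or 5 against 3, fewer splits exist, which raises the smallest p. Equal medians moved the median change of all probe sets in LCM800 against sieved to 0.11, against 0.22. Of 26 calls of relatives, repeated after seeing the data, 17 held in every alternative, 9 were lost in at least 1 and 0 reversed. Signals near the pseudocount limit the size of the lower changes in Canx, Galnt2 and Kmt2e.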
